A study of Mus musculus with 3 samples.

Results

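The genes of oxidative phosphorylation were followed through 3 single-cell libraries of the mouse heart interstitium. They were chosen by name alone. Every row beginning with Ndufa, Ndufb, Ndufc, Ndufs, Ndufv, Sdh, Uqcr, Cox4 to Cox8, Atp5, mt-Nd, mt-Co, mt-Atp or mt-Cytb was taken, and the Ndufaf assembly factors were left out. This gave 99 of the 17126 genes listed in the 3 tables together, 86 encoded in the nucleus and 13 in mitochondrial DNA, and all 99 were listed in every table. By complex the nuclear members were 38 of complex I, 8 of complex II, 8 of complex III, 16 of complex IV and 16 of complex V. The mitochondrial members were 7 of complex I, 1 of complex III, 3 of complex IV and 2 of complex V. The name rule keeps Sdhaf1 to Sdhaf4, which are 4 assembly factors of complex II and not subunits. It also places Ndufa4 by its name with complex I, although its protein is nowadays counted with complex IV.

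Cells had been freed from minced hearts with collagenase II, spun at low speed against cardiomyocytes and debris, and sorted by flow cytometry on the surface proteins Lin28 and cKit. The groups are Lin28-/cKit-, Lin28+/cKit- and Lin28+/cKit+, with 1 droplet-based 3′ library each, and values below follow that order. The labels name neither strain, age and sex nor how many animals were used. Lin28 is an RNA-binding protein known from stem cells, and cKit is the receptor of stem cell factor.

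Oxidative phosphorylation is the process by which mitochondria make ATP. Complexes I and II take electrons from NADH and succinate, complexes III and IV pass them on to oxygen while protons are pumped across the inner membrane, and complex V, the ATP synthase, uses the returning protons. Subunits of complexes I, III, IV and V come from both genomes, the mitochondrial ones being core subunits, whereas complex II is wholly nuclear. Several nuclear subunits of complex IV exist as isoforms, among them forms typical of heart and skeletal muscle (Cox6a2, Cox7a1, Cox8b), a form known from lung and vascular mural cells (Cox4i2) and one known from testis (Cox6b2).

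Nuclear genes of this system are textbook targets of the factors NRF1, GABPA of the ETS family, YY1 and ERRα. Start regions of members that led the comparisons are therefore shown where one was available. Of the 86 nuclear members 71 had a RefSeq start region (GRCm38.p6), running from 250 bases before to 50 bases after a start. Cox4i2, Ndufa4l2, Cox4i1 and Cox6a2 were among those without one and were not searched. The motif of NRF1 (GCGCA, any base and GCGC) was found on either strand in 25.4% of the 71 members against 5.19% of all genes with such a 300-base region. For the ETS motif CCGGAAG the shares were 26.8% and 9.93%, for the YY1 motif AAGATGGCG 9.86% and 1.64%, and for the ERRα motif AAGGTCA 11.3% and 5.38%. The MEF2 motif, known from muscle genes, was found in 0 of the 71 members and in 0.636% of all genes. No matches to different motifs overlapped in the members. Such a match is a run of letters and not a measured binding site. The lines below give 30 bases around each match, 5′ to 3′ on the gene's strand, with the match in capitals (on the opposite strand the motif appears as its reverse complement). Ndufa8, Atp5j, Ndufs5 and Ndufs6 were among the genes with the largest difference between macrophages and endothelial cells, and Cox6a1, Cox8a and Cox6b1 are the widely used partners of tissue-restricted isoforms.
Ndufa8, NRF1, mm10 chr2:36049349-36049378, minus strand: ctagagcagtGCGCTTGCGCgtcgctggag
Ndufs5, NRF1, mm10 chr4:123718265-123718294, minus strand: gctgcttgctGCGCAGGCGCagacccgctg
Ndufs5, ERRα, mm10 chr4:123718397-123718426, minus strand: ctttctcgagtgTGACCTTgctcaagtagc
Ndufs6, NRF1, mm10 chr13:73328479-73328508, minus strand: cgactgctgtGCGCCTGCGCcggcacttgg
Ndufs6, YY1, mm10 chr13:73328433-73328462, minus strand: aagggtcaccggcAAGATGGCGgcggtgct
Atp5j, ETS, mm10 chr16:84835020-84835049, minus strand: tagctgagggacCCGGAAGcacttaccctc
Atp5j, YY1, mm10 chr16:84835046-84835075, minus strand: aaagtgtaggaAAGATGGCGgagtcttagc
Cox6a1, NRF1, mm10 chr5:115349101-115349130, minus strand: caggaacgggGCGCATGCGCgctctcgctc
Cox6a1, NRF1, mm10 chr5:115349056-115349085, minus strand: cggataaagtGCGCAGGCGCtggagttcct
Cox6a1, ETS, mm10 chr5:115348957-115348986, minus strand: tccccatttccgCTTCCGGcgcgccggtgt
Cox8a, ETS, mm10 chr19:7217604-7217633, minus strand: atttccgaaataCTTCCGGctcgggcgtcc
Cox8a, ETS, mm10 chr19:7217567-7217596, minus strand: tcagcgccggaaCTTCCGGctggttcggcc
Cox6b1, ETS, mm10 chr7:30626125-30626154, minus strand: ctcctctcgcagCTTCCGGccagtcggaat

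Regions of Ndufa4, Cox7a2, Cox7a1, Cox8b and Cox6b2 held none of these motifs, which says only that these letters are not in those windows. A longer stretch is given for Cox6b1 and Cox6b2, isoforms of 1 subunit, because Cox6b2 was the one nuclear member higher in macrophages than in endothelial cells. It holds only the bases before the outermost annotated start, so for Cox6b1 it ends before the ETS match above.
Cox6b1, mm10 chr7:30626152-30626364, minus strand: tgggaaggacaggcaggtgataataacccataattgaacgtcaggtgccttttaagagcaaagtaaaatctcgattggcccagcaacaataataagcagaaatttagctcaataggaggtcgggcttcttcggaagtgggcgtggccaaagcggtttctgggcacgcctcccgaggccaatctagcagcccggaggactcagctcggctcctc
Cox6b2, mm10 chr7:4753095-4753344, minus strand: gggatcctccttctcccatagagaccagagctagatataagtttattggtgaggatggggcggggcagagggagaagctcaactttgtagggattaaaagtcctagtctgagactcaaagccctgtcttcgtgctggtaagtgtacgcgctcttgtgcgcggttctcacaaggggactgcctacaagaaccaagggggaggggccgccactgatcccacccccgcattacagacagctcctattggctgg

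The libraries held 3976, 681 and 1176 cells with 34031955, 7401174 and 10400648 UMIs (unique molecular identifiers, each standing for 1 captured transcript). Median UMIs per cell were 8630, 9628 and 8068.5. No cell in any table had 10% or more of its UMIs from mitochondrial genes (highest shares 9.99%, 9.90% and 9.99%), so summed mitochondrial levels describe only cells under that limit. Cells were given a class from marker genes, none of them a member. Endothelial-like cells numbered 927, 236 and 429, macrophage-like cells 21, 307 and 615 and fibroblast-like cells 2725, 30 and 9, and 202, 82 and 111 cells met no class rule. A class was compared where it had at least 50 cells. The 3 sorts therefore differ in cell makeup, and libraries were compared within a class. Barcodes shared between libraries were 0, 8 and 1 for Lin28-/cKit- with Lin28+/cKit-, Lin28-/cKit- with Lin28+/cKit+, and the Lin28+ pair. Each sort was represented by a single library, so no p-value is given, and the intervals, all at 95%, cover counting error only.

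Levels are given as CPM, the UMIs of a gene summed over cells and scaled to the summed UMIs of the same cells. In endothelial-like cells the nuclear members summed to 17802 CPM (17672 to 17934), 17293 CPM (17105 to 17482) and 18517 CPM (18350 to 18684). The 3 endothelial sums thus lay within a narrow band across the sorts. The macrophage-like cells were lower, with 11553 CPM (11450 to 11657) in the Lin28+/cKit- and 12089 CPM (12005 to 12173) in the Lin28+/cKit+ library. Fibroblast-like cells of the Lin28-/cKit- library summed to 15902 CPM (15855 to 15949), between the other classes. The 13 mitochondrial members did not follow that order. Their endothelial sums were 61099 CPM (60857 to 61342), 68107 CPM (67734 to 68482) and 69468 CPM (69145 to 69792), and the macrophage sums of 62782 CPM (62542 to 63023) and 61723 CPM (61533 to 61913) lay close below those of the same libraries. The fibroblast sum was 46800 CPM (46719 to 46880).

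As a ratio, mitochondrial UMIs per nuclear member UMI were 3.43 (3.40 to 3.46), 3.94 (3.89 to 3.99) and 3.75 (3.71 to 3.79) in endothelial-like cells. They were 5.43 (5.38 to 5.49) and 5.11 (5.07 to 5.14) in macrophage-like cells and 2.94 (2.93 to 2.95) in fibroblast-like cells. The intervals of these macrophage ratios, both from Lin28+ libraries, lay above that of every endothelial and fibroblast ratio. The 21 macrophage-like cells of the Lin28-/cKit- library had 3.84 (3.62 to 4.08). That interval takes in the endothelial ratio of the Lin28+/cKit- library. Shallow macrophages had lower ratios. The 59 macrophage-like cells of the Lin28+/cKit- library with under 2000 UMIs had 2.68 mitochondrial UMIs per nuclear UMI, and the deeper cells had 5.11 (2000 to 5000 UMIs, 10 cells), 5.69 (up to 10000) and 5.47 (above). In the Lin28+/cKit+ library the 39 shallow cells gave 3.46 and the deeper ones 6.18, 5.43 and 4.94, so above 2000 UMIs it did not climb steadily with depth in either library. The shares of cells at 9% or more mitochondrial UMIs, next to the limit, were 11%, 14.8% and 14.9% in the endothelial classes, 4.56% and 5.04% in the macrophage classes and 0.294% in the fibroblasts. The part of that limit in the levels was not tested.

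**Figure D1:**
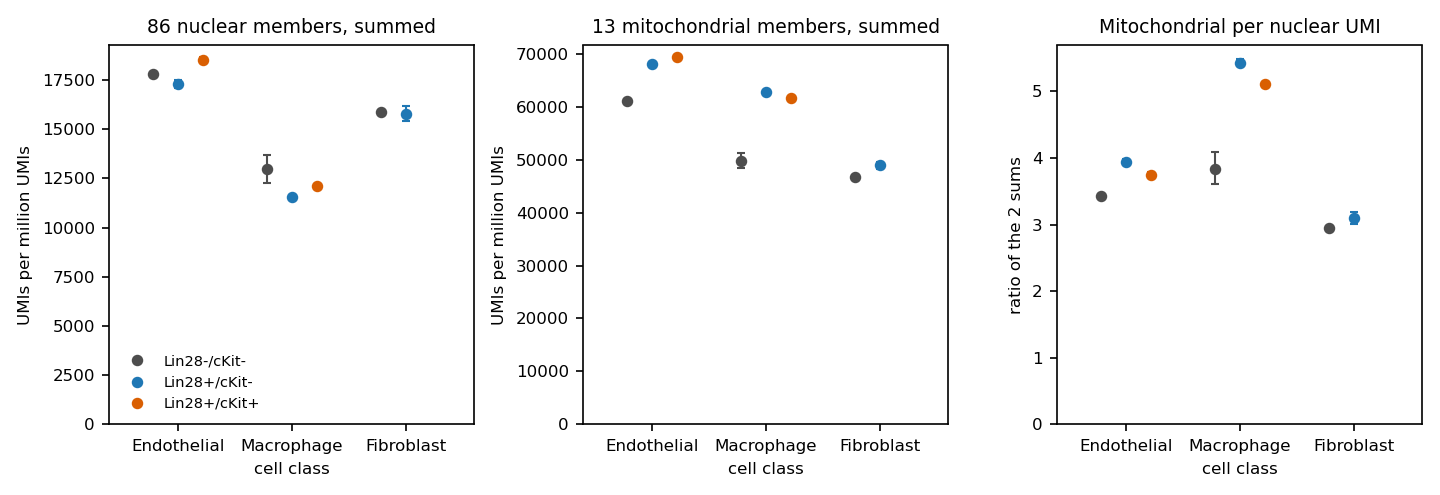
Summed levels of the 86 nuclear and the 13 mitochondrial members in CPM, and their ratio, for each class with at least 20 cells in a library (points, 1 per library, with 95% counting intervals). Macrophage points lie lowest in the nuclear panel (11553 to 12975 CPM), and those of the 2 Lin28+ libraries lie highest in the ratio panel.

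Small classes frame these levels. The 8, 5 and 6 cardiomyocyte-like cells left after the spin had nuclear sums of 130550, 175410 and 172860 CPM and mitochondrial sums of 54488, 48923 and 56026 CPM, so that the ratio was under 1 (0.417, 0.279 and 0.324). These cells were shallow, with median UMIs of 914, 762 and 1041.5. The limit on the mitochondrial share decides which such cells are in the tables. The 27 pericyte-like cells of the Lin28-/cKit- library had 28737 nuclear CPM and 73735 mitochondrial CPM. At the other end, 8 neutrophil-like cells of that library had 7040 and 7979 CPM and a ratio of 1.13 (0.864 to 1.49).

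The nuclear levels are shown by 2 members of each complex, those with the highest mean over the 3 endothelial classes. UMIs were counted at the 3′ end, so transcript length does not enter. Cox4i1, the common form of the regulatory subunit 4 of complex IV, had 813, 730 and 747 CPM in endothelial-like cells, 558 and 628 CPM in macrophage-like cells and 706 CPM in fibroblast-like cells. Cox6c, a small subunit of the same complex, had 563, 686 and 624 CPM in endothelial-like cells, 361 and 330 CPM in macrophage-like cells and 521 CPM in fibroblasts. Both were lower in macrophage-like cells than in the other classes. For complex I these were Ndufa4, described below, and Ndufa2, an accessory subunit. Ndufa2 had 272, 269 and 293 CPM in endothelial-like cells, 204 and 221 CPM in macrophages and 264 CPM in fibroblasts. For complex II these were Sdha, the flavoprotein that oxidises succinate, at 88.4, 86.4 and 86.5 CPM in endothelial-like cells against 74.8 and 73.8 CPM in macrophages, and Sdhb, its iron-sulfur partner, at 82.1, 91.8 and 81.4 CPM against 70.5 and 73.5 CPM. For complex III these were Uqcrh, the hinge protein, with 444, 420 and 450 CPM in endothelial-like cells and 339 and 385 CPM in macrophages, and Uqcrb, with 381, 377 and 401 CPM against 223 and 221 CPM. For complex V they were Atp5j, which is coupling factor 6 of the stalk, and Atp5e, the epsilon subunit of the rotor, which had 456, 499 and 502 CPM in endothelial-like cells and 368 and 369 CPM in macrophages.

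Macrophage-like and endothelial-like cells of the same library were compared gene by gene. A gene was called higher or lower when its ratio was at least 1.5 in either direction and its interval excluded 1, among genes with at least 20 UMIs in the pair. In the Lin28+/cKit- library 39 of 85 measured nuclear members were lower in macrophages and 1 was higher, and 82 of the 85 had a ratio below 1. Over all 10312 genes measured 34.6% were lower and 19.7% higher, so the lower share is above the background and the higher share below it. The median log2 ratio was -0.56 for the nuclear members (medians of the members' own limits -0.79 and -0.33) and -0.32 for all genes. In the Lin28+/cKit+ library 43 of 86 were lower and 1 was higher, 85 had a ratio below 1, and the median log2 ratio was -0.61 against -0.38 for all genes. There 37.9% of all 10869 genes were lower and 19.4% higher. The 35 members called lower in both libraries are 89.7% of the first 39 and 81.4% of the 43. None of the 13 mitochondrial members was called in either library. Their median log2 ratios were -0.23 and -0.17. As sums, the macrophage level was 0.668 of the endothelial one (0.659 to 0.678) and 0.653 (0.645 to 0.660) for the nuclear members, but 0.922 (0.916 to 0.928) and 0.889 for the mitochondrial ones. Median depth also differed between the classes, with 12286 and 9509 UMIs in macrophages against 7433 and 5339 in endothelial-like cells.

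By complex the lower members in macrophages were 24 of 38 for complex I in the Lin28+/cKit- and 25 of 38 in the Lin28+/cKit+ library (median log2 ratios -0.65 and -0.68). For complex III they were 4 of 8 in both (-0.60 and -0.61). For the nuclear part of complex IV they were 8 and 7 of 16 (-0.66 and -0.56), and for complex V 3 of 15 measured and 6 of 16 (-0.46 and -0.55). Of all genes 34.6% and 37.9% were lower in these libraries. The complex V counts were not above these shares, and the complex IV count of the Lin28+/cKit+ library was near its share. Complex III has too few members to be set apart from them. For the 4 subunits of complex II itself none was called, the median was -0.13 in both libraries, and Sdhd, its membrane anchor, had ratios of 1.10 (0.878 to 1.39) and 0.926 (0.767 to 1.12). Complex II thus had the smallest median difference of the 5 complexes. Picked after their values were seen, Atp5g2 (ratios 0.976 and 0.904), which encodes the ring of the ATP synthase, Ndufa13 (0.913 and 0.938), a complex I subunit also known as GRIM-19, and Sdhc (0.969 and 0.945) were also near the endothelial level in both libraries.

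Among the genes lower in macrophages, Ndufa8 (chr2:36036326-36049406), an accessory subunit of complex I, had 68.1 CPM against 244 CPM (ratio 0.279, 0.239 to 0.324) in the Lin28+/cKit- library. In the Lin28+/cKit+ library it had 75.6 CPM against 254 CPM (0.298). Its endothelial level in the Lin28-/cKit- library was 265 CPM, so all 3 endothelial values lay above 3 times both macrophage values. Atp5j had 188 CPM against 585 CPM (0.322, 0.293 to 0.353) and 196 CPM against 661 CPM (0.297). Atp5j lies on the strand opposite to Gabpa, which encodes an ETS factor, and the 2 genes overlap in the annotation. Ndufs5, a small subunit of complex I, had 96.6 CPM against 253 CPM (0.381) and 92.2 CPM against 255 CPM (0.361). Ndufa4 had 194 CPM against 472 CPM (0.411) and 200 CPM against 512 CPM (0.391). Cox7a2, the common form of subunit 7a, had 192 CPM against 456 CPM (0.421) and 205 CPM against 471 CPM (0.435). Ndufs6, which overlaps Mrpl36 on the other strand, had 55.6 CPM against 131 CPM (0.425) and 66.1 CPM against 153 CPM (0.432). For each of these genes the macrophage and endothelial intervals were apart in both libraries.

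**Figure D2:**
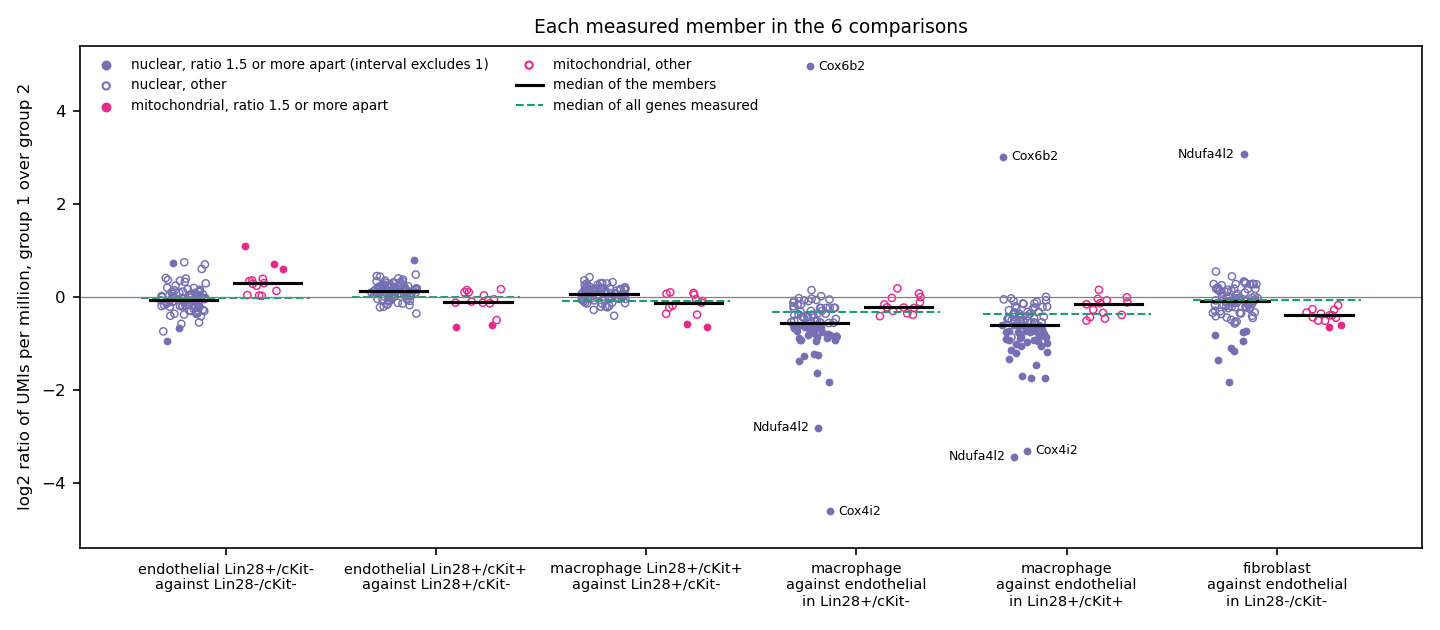
The log2 ratio of CPM of each measured member in the 6 comparisons (violet nuclear, pink mitochondrial, filled where called), with the median of the members as a black bar and that of all measured genes as a dashed line. In both comparisons of macrophages with endothelial cells the nuclear bar lies below the dashed line (-0.56 against -0.32 and -0.61 against -0.38), and the mitochondrial bar lies above it.

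The 1 nuclear member higher in macrophages in both libraries was Cox6b2 (chr7:4751792-4753094), the isoform of subunit 6b known from testis. It had 16.5 CPM from 69 UMIs against 0.533 CPM from 1 UMI in the Lin28+/cKit- library (ratio 31.0, 5.38 to 1242). In the Lin28+/cKit+ library it had 22.1 CPM from 145 UMIs against 2.74 CPM from 7 UMIs (8.07, 3.82 to 20.4). The 21 macrophage-like cells of the Lin28-/cKit- library held 4 UMIs (39.2 CPM, 10.7 to 100.4), while 2.00 CPM in its endothelial-like and 2.13 CPM in its fibroblast-like cells were in the range of the other endothelial values. The level in macrophages was thus above that of the endothelial-like cells in each library. Cox6b2 UMIs occurred in 16.6% (12.6 to 21.3) and 17.4% (14.5 to 20.6) of macrophage-like cells and in 0.424% and 1.40% of endothelial-like cells, which were shallower. Thinned to 1000 UMIs a cell, with 38 and 27 macrophage-like and 11 and 18 endothelial-like cells left out, the shares were 0.372% and 1.02% against 0% and 0%, too near 1 UMI to be read. Both macrophage subtypes had it, the resident type (16.01 and 19.66 CPM) and the inflammatory type (19.7 and 23.8 CPM). Its widely used partner Cox6b1 had 302 and 313 CPM in macrophages against 409 and 406 CPM in endothelial-like cells, where the Lin28-/cKit- value was 380 CPM. The sum over both isoforms was therefore mostly Cox6b1 in every class.

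Cox4i2 and Ndufa4l2 were the members with the smallest macrophage to endothelial ratio in both libraries. Cox4i2 (chr2:152754173-152765037), the alternative subunit 4 of complex IV, had 0.719 CPM from 3 UMIs in macrophages against 17.6 CPM from 33 UMIs in endothelial-like cells of the Lin28+/cKit- library (ratio 0.0408, 0.00802 to 0.130), and 2.29 CPM against 22.7 CPM in the Lin28+/cKit+ library (0.101, 0.053 to 0.18). Ndufa4l2 (chr10:127514967-127517154), a relative of Ndufa4 known as a target of hypoxia-inducible factor, had 1.44 CPM against 10.1 CPM (0.142, 0.046 to 0.37) and 1.22 CPM against 13.3 CPM (0.0917). Both were far below the 27 pericyte-like cells, where Cox4i2 reached 1267 CPM from 99 UMIs and Ndufa4l2 1881 CPM from 147 UMIs.  Ndufa4l2 overlaps Shmt2 on the other strand, and the counting strand is not given in the sources used here.

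Within endothelial-like cells Cox4i2 was highest in the arterial subtype in all 3 libraries. Arterial cells had 100 CPM from 62 UMIs, 139 CPM from 12 UMIs and 76.5 CPM from 25 UMIs, capillary cells 22.3, 15.3 and 14.1 CPM. Of the other subtypes, the endocardial cells had 3.04 CPM in the Lin28-/cKit- and 0 in the Lin28+/cKit+ library, and the cells marked by Lrg1 had 6.36, 0 and 0 CPM. A Cox4i2 UMI was seen in 21.8%, 27.8% and 25.0% of the arterial cells and in 6.69%, 9.28% and 7.45% of the capillary cells. In the Lin28-/cKit- library, the one with at least 50 cells of both, the capillary level was 0.223 of the arterial (0.130 to 0.368). The 6 pericyte markers, at 16430 CPM in pericyte-like cells, summed to 210, 323 and 352 CPM in arterial and 124, 400 and 228 CPM in capillary cells. They were higher in the arterial cells of the Lin28-/cKit- and Lin28+/cKit+ libraries and in the capillary cells of the Lin28+/cKit- library. Ndufa4l2 UMIs per Cox4i2 UMI were 1.48 (1.14 to 1.94) in pericyte-like cells and 0.226 (0.117 to 0.408) in arterial cells of the Lin28-/cKit- library. The 2 genes thus stood in different proportions in the 2 kinds of cell. The part of pericyte transcripts in the arterial Cox4i2 level was not tested.

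In fibroblast-like cells of the Lin28-/cKit- library Ndufa4l2, but not Cox4i2, stood above the endothelial level. Ndufa4l2 had 142 CPM against 17.0 CPM in its endothelial-like cells (ratio 8.34, 6.56 to 10.8), while Cox4i2 had 24.9 CPM against 28.3 CPM. The 30 and 9 fibroblast-like cells of the other libraries had 112 CPM and 268 CPM of Ndufa4l2. Their Cox4i2 levels, from 14 and 4 UMIs, were 36.5 CPM (19.9 to 61.2) and 42.9 CPM (11.7 to 109.8), above the endothelial values of 17.6 and 22.7 CPM, the second with an interval that includes the endothelial value. A UMI of Ndufa4l2 was found in 56.1% of the Lin28-/cKit- fibroblasts, with 5.71 Ndufa4l2 UMIs per Cox4i2 UMI (5.26 to 6.20). By subtype the Ndufa4l2 level was 54.6 CPM (49.2 to 60.4) in the 570 cells marked by Pi16, 150.2 CPM (139.5 to 161.5) in the 509 marked by Inmt and 222 CPM (208 to 236) in the 462 marked by G0s2, which is itself a lipolysis inhibitor. The share of cells with a UMI was 33.5%, 60.1% and 72.3% in that order. Pericyte markers moved in the same order (54.8, 121 and 174 CPM), and their part was not tested.

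**Figure D3:**
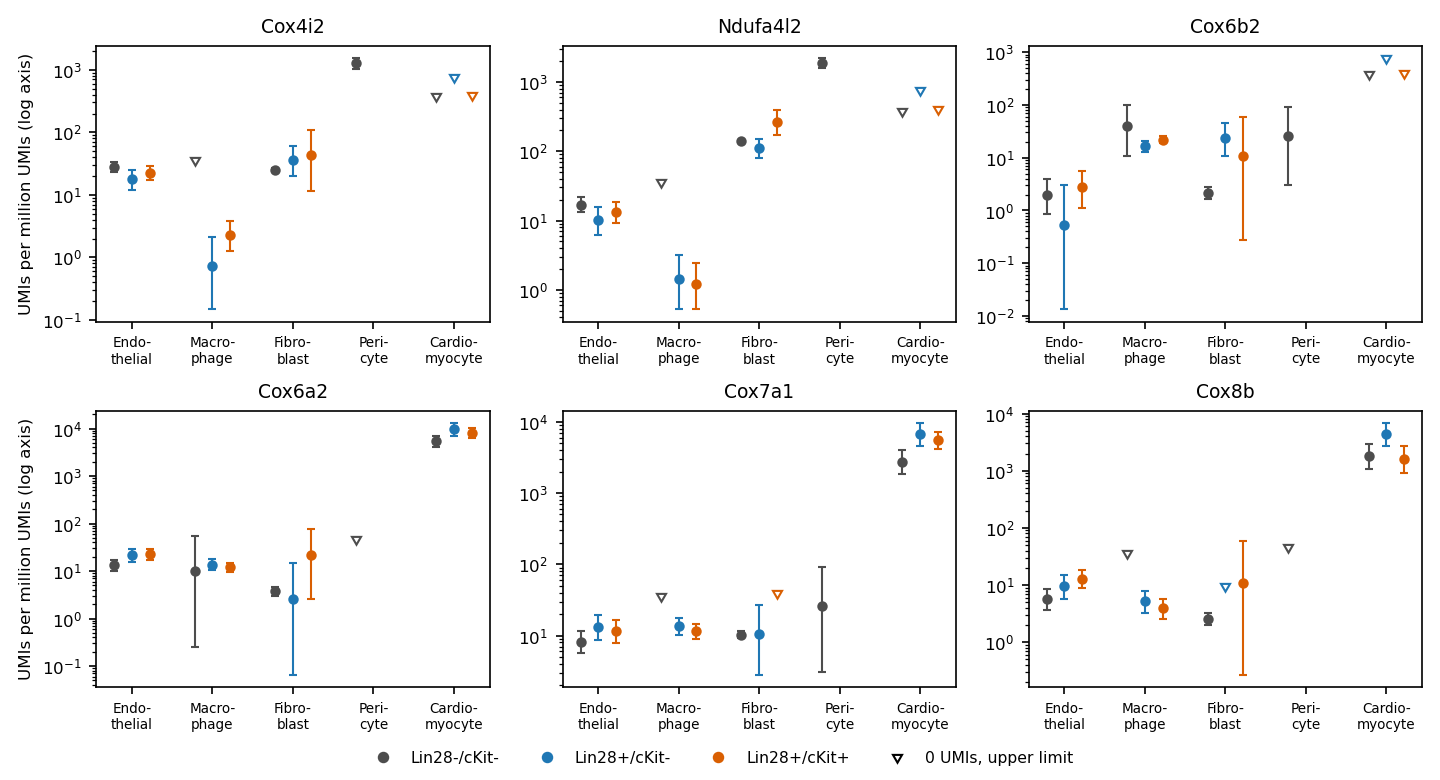
Levels of 6 isoform genes in CPM on a log axis by class and library (points with 95% counting intervals, open triangles the upper limit where no UMI was seen, classes of at least 5 cells). Cox4i2 and Ndufa4l2 peak in pericyte-like cells, Cox6a2, Cox7a1 and Cox8b in cardiomyocyte-like cells, and Cox6b2 lies higher in macrophage-like than in endothelial-like cells.

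The muscle isoforms of complex IV were read next to their common partners and to the cardiomyocyte markers. Cox6a2 had 13.3, 21.9 and 22.7 CPM in endothelial-like cells, 13.7 and 11.9 CPM in macrophages and 3.71 CPM in fibroblasts, but 5418, 9617 and 8143 CPM in cardiomyocyte-like cells. Cox7a1 had 8.26, 13.3 and 11.7 CPM, 13.4 and 11.4 CPM, and 10.3 CPM in the same classes against 2760, 6690 and 5538 CPM. Cox8b had 5.76, 9.603 and 12.9 CPM, 5.27 and 3.96 CPM, and 2.56 CPM against 1840, 4391 and 1629 CPM. All 3 were thus present outside the muscle cells at a small part of their level in them. The partners were present throughout, with Cox6a1 at 301, 318 and 299 CPM in endothelial-like cells, 174 and 151 CPM in macrophages and 225 CPM in fibroblasts. Cox8a stood at 508, 495 and 552 CPM, 439 and 461 CPM, and 572 CPM, and Cox7a2 had 402 CPM in Lin28-/cKit- endothelial-like cells and 277 CPM in fibroblasts. The 11 cardiomyocyte markers summed to 242, 363 and 434 CPM in endothelial-like cells (11 of 11 with UMIs), 153 CPM (10 of 11, with Ryr2 at 0) and 192 CPM in macrophages and 70.7 CPM in fibroblasts. Per 100 UMIs of these markers, the 3 muscle isoforms together had 10.8, 22.1 and 16.5 UMIs in cardiomyocyte-like cells, 11.3, 12.3 and 10.9 in endothelial-like cells, 21.2 (17.4 to 25.5) and 14.2 in macrophages and 23.5 (21.2 to 26.0) in fibroblasts. Across the endothelial-like cells of the 3 libraries Cox6a2 and Cox8b thus stood in the order of the cardiomyocyte markers, whose part in their levels was not tested. Cox6a2 also overlaps Itgad, an integrin gene, on the other strand.

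Fibroblast-like and endothelial-like cells could be compared in the Lin28-/cKit- library. Of the 86 nuclear members 8 were lower in fibroblasts and 1, Ndufa4l2, was higher, against 24.7% lower and 21.6% higher among all 12776 genes, and 55 members had a ratio below 1. The members were thus called less often than genes in general, and their median log2 ratio of -0.10 was near that of all genes, -0.07. The 5 lowest ratios were those of Cox6a2 (0.280), Ndufa8 (103 CPM against 265 CPM, 0.389), Cox8b (0.444), Ndufa4 (224 CPM against 482 CPM, 0.465) and Atp5j (314 CPM against 610 CPM, 0.514). Sdhaf1 (0.566), Ndufb7 (0.593) and Cox5a (0.600) were the others. Cardiomyocyte markers summed to 70.7 CPM in these fibroblasts and 242 CPM in these endothelial-like cells. Their part in the ratios of the muscle isoforms Cox6a2 and Cox8b was not tested. Ndufa8, Ndufa4 and Atp5j were thus lower in fibroblasts as well as in macrophages, so their endothelial level stood above both other classes. The mitochondrial members had ratios below 1 in 13 of 13 cases with a median log2 ratio of -0.40, and mt-Atp8 (0.633, 0.596 to 0.674) and mt-Nd4l (0.656, 0.621 to 0.694) were called lower. The sums were 0.893 of the endothelial level (0.886 to 0.900) for the nuclear and 0.766 for the mitochondrial members. Fibroblast markers amounted to 1746 CPM in these endothelial-like cells, against 186 and 508 CPM in the endothelial-like cells of the other libraries, and their part was not tested.

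Between the sorts, within 1 class, few nuclear members differed. In endothelial-like cells of the Lin28+/cKit- against the Lin28-/cKit- library, 1 of 85 measured nuclear members was higher and 2 were lower, where 3.9% of all 10222 genes were higher and 5.98% lower. The median log2 ratio was -0.08 against -0.03 for all genes. Sdhaf1, an assembly factor of complex II, was lower with 20.3 CPM against 39.3 CPM (ratio 0.516, 0.352 to 0.739), and it overlaps E130208F15Rik on the other strand. Cox4i2 was lower (17.6 CPM against 28.3 CPM, 0.622, 0.409 to 0.924), and Cox6a2 was higher (21.9 CPM against 13.3 CPM, 1.65, 1.07 to 2.53). In the endothelial-like cells without a UMI of a cardiomyocyte marker these 2 calls were lost and their direction turned, with log2 ratios of 0.17 for Cox4i2 and -0.47 for Cox6a2 whose intervals both include 0. This choice leaves out 66.1% of the 236 Lin28+/cKit- and 52.0% of the 927 Lin28-/cKit- cells. The depth of the cells left was not compared. In capillary cells alone 0 of 83 nuclear members were higher and 5 lower, near the 3.41% and 4.44% of all genes there.

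The Lin28+/cKit+ against the Lin28+/cKit- library gave 1 higher and 0 lower of 84 measured nuclear members in endothelial-like cells, against 3.32% and 3.84% of 9598 genes. The higher one was Sdhaf1 with 34.8 CPM against 20.3 CPM (1.72, 1.16 to 2.58), and this comparison shares the Lin28+/cKit- cells with the one before, so that its low value enters both. In macrophage-like cells of the same libraries 0 of 84 nuclear members were called, where 1.84% of 10400 genes were higher and 4.63% lower, and the median log2 ratio was 0.06 against -0.09 for all genes. The nuclear sums of the Lin28+/cKit+ library were 1.071 (1.056 to 1.086) and 1.046 (1.034 to 1.058) of those of the Lin28+/cKit- library in endothelial-like and macrophage-like cells. Whole libraries, which mix the classes, differed more. The Lin28+/cKit- against the Lin28-/cKit- library had 4 nuclear members higher and 13 lower of 86 and 7 of 13 mitochondrial members higher (22.1% and 25.4% of all genes higher and lower), and with 307 against 21 macrophage-like and 30 against 2725 fibroblast-like cells the makeup of the libraries and levels within cells cannot be told apart there. The Lin28+/cKit+ against the Lin28+/cKit- library had 0 higher and 1 lower nuclear member and 2 lower mitochondrial ones (1.77% and 8.02% of all genes).

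The mitochondrial members called between sorts were mt-Nd3, mt-Nd6 and mt-Atp8. mt-Nd3 (chrM:9459-9806), a small core subunit of complex I, had 762, 1631 and 1061 CPM in endothelial-like cells, 1842 and 1172 CPM in macrophages and 669 CPM in Lin28-/cKit- fibroblasts. The endothelial ratio of the Lin28+/cKit- to the Lin28-/cKit- library was 2.14 (2.04 to 2.25), and the ratios of the Lin28+/cKit+ to the Lin28+/cKit- library were 0.651 (0.618 to 0.685) in endothelial-like and 0.636 (0.616 to 0.657) in macrophage-like cells. mt-Nd6 (chrM:13552-14070), the one mitochondrial member on the minus strand, had 63.1, 102.4 and 65.3 CPM in endothelial-like cells (1.62, 1.34 to 1.97, and 0.638, 0.515 to 0.789) and 76.5 and 59.1 CPM in macrophages. mt-Atp8 (chrM:7766-7969), which overlaps mt-Atp6 on the same strand, had 319, 481 and 338 CPM in endothelial-like cells (1.51, 1.38 to 1.64, for the first pair) and 374 and 249 CPM in macrophages (0.666, 0.621 to 0.714). The mt-Nd3 calls held without the 5% deepest cells, on other totals, at a class margin of 2 times and in cells without a cardiomyocyte marker UMI. Those of the other genes lay near the limit. mt-Atp8 lost its endothelial call without the deepest cells (log2 ratio 0.56) and its macrophage call under each of these 4 alternatives (-0.44 to -0.57). mt-Nd6 lost both endothelial calls in cells without a cardiomyocyte marker UMI (0.39 and -0.20), and the one of the Lin28+ pair at the margin of 2 times (-0.58). The Lin28+/cKit- library was the highest for all 3 genes within each class with at least 50 cells in more than 1 library.

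As a share of the UMIs of the 13 mitochondrial members, mt-Nd3 took 1.25%, 2.39% and 1.53% in endothelial-like cells, 2.93% and 1.8996% in macrophages, and 1.43% in Lin28-/cKit- against 2.68% in the 30 Lin28+/cKit- fibroblasts. For mt-Atp8 the shares were 0.522%, 0.706% and 0.487% in endothelial-like cells, 0.596% and 0.403% in macrophages and 0.432% against 0.735% in these fibroblasts. mt-Nd6 took 0.103%, 0.150% and 0.09405%, then 0.122% and 0.0958%, then 0.111% against 0.181%. The Lin28+/cKit- library stood highest in each of these 3 classes. The sort and the preparation of its single library cannot be told apart. The genes with many UMIs moved less. mt-Co3, a core subunit of complex IV, had 12286, 12475 and 13932 CPM in endothelial-like cells, 13061 and 13786 CPM in macrophages and 10177 CPM in fibroblasts. Its partner mt-Co2 had 9346, 9445 and 10072 CPM, 9250 and 9505 CPM, and 7064 CPM. mt-Co1, the catalytic subunit, had 7907, 10047 and 9175 CPM, 8474 and 7203 CPM, and 5527 CPM.

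**Figure D4:**
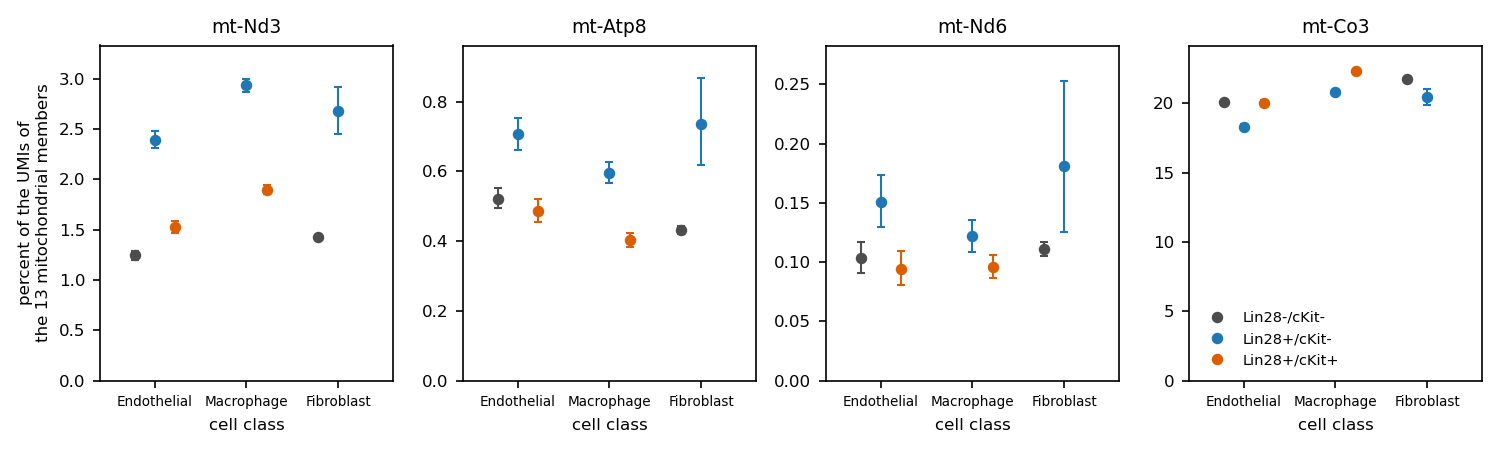
Share of 4 mitochondrial genes among the UMIs of the 13 mitochondrial members, in percent, by class and library (classes of at least 30 cells, 95% counting intervals). Macrophage points are those of the Lin28+ libraries. For mt-Nd3, mt-Atp8 and mt-Nd6 the Lin28+/cKit- point is the highest of its class, as with mt-Nd3 at 2.39% in endothelial-like and 2.93% in macrophage-like cells.

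mt-Cytb, the mitochondrial subunit of complex III, had 5780, 6293 and 6933 CPM in endothelial-like cells and 4795 and 4991 CPM in macrophages, ratios of 0.762 (0.745 to 0.779) and 0.720 (0.707 to 0.733) that did not reach the 1.5-fold limit, and 4480 CPM in fibroblasts. mt-Nd3 went the other way, with macrophage ratios of 1.13 (1.08 to 1.18) and 1.105 (1.058 to 1.155). mt-Atp6, the proton channel of the ATP synthase, had 13141, 13450 and 14346 CPM in endothelial-like cells, 12351 and 13135 CPM in macrophages and 10363 CPM in fibroblasts. The remaining complex I genes were mt-Nd1 with 2846, 3441 and 3300 CPM, mt-Nd2 with 3949, 5147 and 4691 CPM and mt-Nd4 with 3635, 4266 and 4342 CPM in endothelial-like cells. Their macrophage values were 3411 and 3192 CPM, 4578 and 4182 CPM, and 3439 and 3306 CPM. mt-Nd4l, which overlaps mt-Nd4 on the same strand, had 377, 461 and 427 CPM and in macrophages 391 and 299 CPM, and mt-Nd5 had 689, 868 and 784 CPM and 739 and 645 CPM. In fibroblasts these 5 genes had 2086, 2882, 2530, 247 and 521 CPM, each below its endothelial value. In the same library pairs, the 13 mitochondrial members as a whole had median log2 ratios of 0.29 (none of 13 ratios below 1) in Lin28+/cKit- against Lin28-/cKit- endothelial-like cells, -0.11 in the following endothelial pair and -0.13 in macrophages. The sum ratios were 1.115 (1.107 to 1.122), 1.02 and 0.983. In the first pair median depth was 7433 against 3965 UMIs. Its mitochondrial sums were 43851 against 63727 CPM under 2000 UMIs (18 and 119 cells) and 62573 against 65798 CPM from 2000 to 5000. They were 71640 against 57558 CPM from 5000 to 10000 and 65207 against 46871 CPM above. The direction thus differed with depth, whose part was not tested.

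Endothelial subtypes differed mostly in their mitochondrial sums. Capillary cells had 67957, 74587 and 75813 CPM of mitochondrial members, arterial cells 57425, 53385 and 69445 CPM, cells marked by Lrg1 59124, 59969 and 62379 CPM and endocardial cells 47508, 53204 (9 cells) and 50416 CPM. Capillary cells were thus highest and endocardial cells lowest in the Lin28-/cKit- and Lin28+/cKit+ libraries. In these libraries the endocardial cells were deeper, with medians of 6860 and 8491 UMIs against 3643 and 5015 in capillary cells. Mitochondrial sums of all Lin28-/cKit- endothelial-like cells were 65798 CPM at 2000 to 5000 UMIs, 57558 CPM up to 10000 and 46871 CPM above. In the Lin28+/cKit+ library they were 72658, 70110 and 65589 CPM. The part of depth was not tested. The nuclear sums of the same subtypes lay between 15925 and 18715 CPM. Against endocardial cells of the Lin28-/cKit- library, capillary cells had 4 mitochondrial members higher, namely mt-Nd4l (1.75), mt-Nd1 (1.67), mt-Nd2 (1.66) and mt-Nd3 (1.55), with a sum ratio of 1.43. Of 80 nuclear members 6 were higher and 1 was lower, against 14.4% and 12.2% of all genes. They were Cox4i2 (7.34, 1.805 to 64.4, with 2 endocardial UMIs), Atp5j (1.73), Ndufc2 (1.70), Ndufa8 (1.70), Ndufb6 (1.60) and Ndufb8 (1.52), and the lower one was Sdhaf4 (0.493). Atp5j and Ndufa8, which were higher in endothelial-like cells than in macrophages and fibroblasts, were thus higher in capillary than in endocardial cells. Against arterial cells, capillary cells had Ndufs7 higher (1.51) and Cox4i2 lower (6.01% and 5.82% of all genes), no mitochondrial member called and a mitochondrial sum ratio of 1.18. Cardiomyocyte markers were 364, 489 and 637 CPM in capillary and 83.6 and 81.4 CPM in endocardial cells of the Lin28-/cKit- and Lin28+/cKit+ libraries, and their part was not tested.

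Resident-type macrophages had 65835 and 68320 CPM of mitochondrial members in the Lin28+/cKit- and Lin28+/cKit+ libraries and the inflammatory type 56655 and 57406 CPM, sum ratios of 1.16 and 1.19. The nuclear sums were 11839 and 12541 CPM against 11256 and 11576 CPM. In the Lin28+/cKit- library 5 of 82 nuclear members were higher in the resident type and 1 was lower, against 9.55% and 3.87% of all genes. The higher ones, Ndufs1 (27.6 CPM against 11.1 CPM, 2.49), Ndufs3 (1.96), Ndufb2 (1.59), Ndufs5 (1.56) and Ndufa11 (1.54), belong to complex I, where Ndufs1 and Ndufs3 are core subunits. The lower one, Uqcrfs1 (0.626), is the Rieske protein of complex III. In the Lin28+/cKit+ library the only nuclear member called was Sdhc (1.59), against 10.8% higher and 3.84% lower among all genes, so none of these 6 calls was made again there. No mitochondrial member was called in either library.

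**Figure D5:**
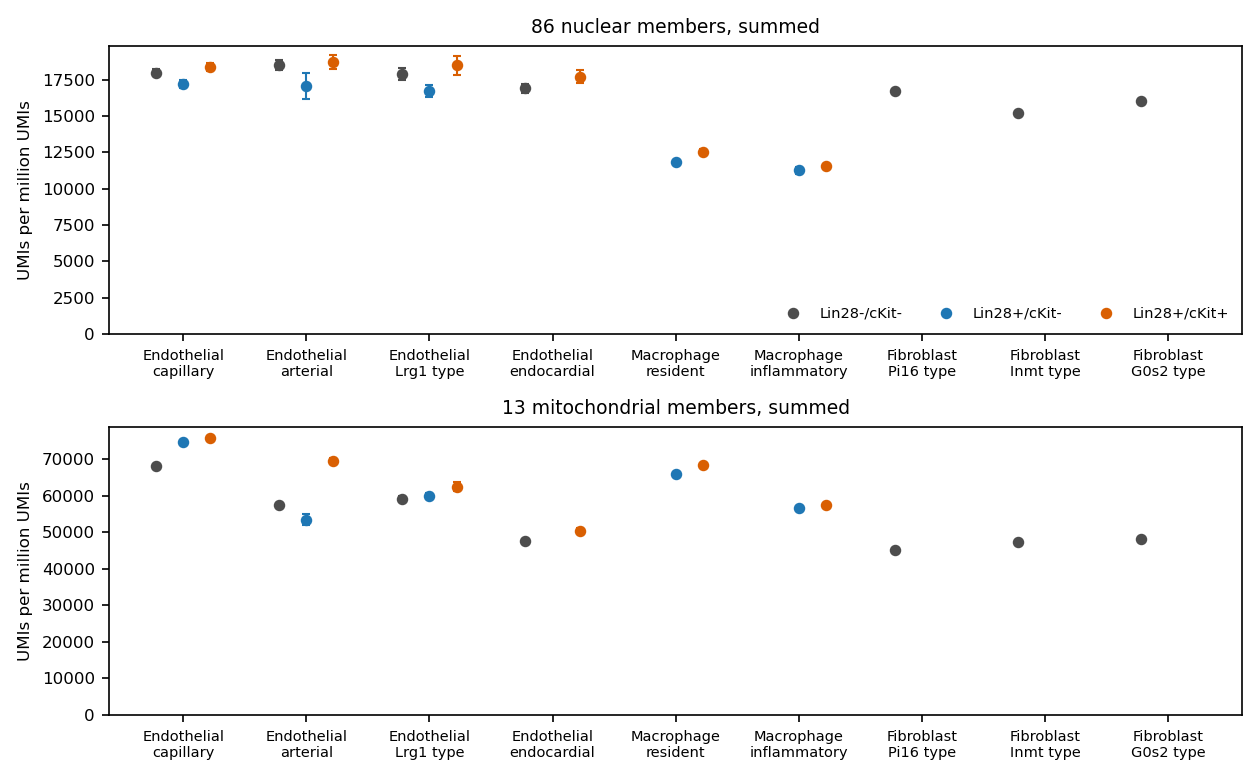
Summed CPM of the 86 nuclear (top) and 13 mitochondrial members (bottom) by subtype and library (subtypes of at least 18 cells, 95% counting intervals). The nuclear sums of the endothelial subtypes lie between 16726 and 18715 CPM, while their mitochondrial sums run from 47508 CPM in endocardial to 75813 CPM in capillary cells.

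Among fibroblast-like cells of the Lin28-/cKit- library the Pi16 type had nuclear and mitochondrial sums of 16688 and 45193 CPM, the Inmt type 15185 and 47236 CPM and the G0s2 type 16040 and 48253 CPM. Between the Pi16 and the Inmt type 5 of 86 nuclear members were lower and none was higher, against 5.14% and 6.94% of all genes. They were Ndufa4l2 (0.364), Cox8b (0.371), Cox4i2 (9.53 CPM against 21.3 CPM, 0.447), Sdhaf1 (0.647) and Cox7a1 (0.662), of which all but Sdhaf1 are isoform genes. The count is near that of all genes, and the other members leaned the opposite way. Of the 86 ratios 11 were below 1, the median log2 ratio was 0.16 against 0.07 for all genes, and the sums had ratios of 1.099 (1.089 to 1.109) for the nuclear and 0.957 (0.952 to 0.962) for the mitochondrial members. Pericyte markers were 54.8 CPM in the Pi16 and 121 CPM in the Inmt type, and cardiomyocyte markers 59.9 and 72.0 CPM. The part of either in the isoform levels was not tested.

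Around the respiratory complexes, 8 further lists were counted in the same way. Of the assembly factors 21 of 48 measured were lower in macrophages and 1 was higher in the Lin28+/cKit- library, and 20 of 49 and 1 in the Lin28+/cKit+ library, with Cox18 (0.243) and Bcs1l (0.281) the lowest in the first and Acad9 (0.314) and Ecsit (0.317) in the second. The list shares Sdhaf1 to Sdhaf4 with the members. Proteins of the mitochondrial ribosome were lower in 34 and 41 of 77, with 2 and 0 higher, among them Mrpl47 (0.403 and 0.223) and Mrpl20 (0.419 and 0.425). Genes that express mitochondrial DNA were lower in 6 of 20 and 7 of 22, with none higher, including Tfb2m (0.334 and 0.349), a factor that helps the mitochondrial polymerase to start. The lower shares were thus 43.8% and 40.8% for assembly, 44.2% and 53.2% for the ribosome and 30% and 31.8% for the last list, beside 34.6% and 37.9% of all genes. The assembly share in the Lin28+/cKit+ library and those of the last list were near the background.

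The smaller lists had genes called in both directions, where 19.7% and 19.4% of all genes were higher and 34.6% and 37.9% lower in macrophages of the 2 libraries. Cytochrome c, Cycs, was lower in macrophages (0.417 and 0.450), as was the ATP carrier Slc25a4 (0.399 and 0.367), while the ATP synthase inhibitor Atpif1 was higher (1.63 and 1.80). Of 9 carriers 2 were higher and 3 lower in the first library, 1 higher and 4 lower in the second, counts too small to be set apart from those shares. Of 8 regulators 2 were higher and 1 was lower in both. Ppargc1b, a coactivator of mitochondrial genes, had 7.91 CPM against 0.533 CPM (14.8, 2.48 to 603) and 5.49 CPM against 0.782 CPM (7.01, 1.81 to 60.1), the endothelial values resting on 1 and 2 UMIs, and Gabpb1, the partner of GABPA, was lower (0.388 and 0.507). Of 8 mitochondrial antioxidant genes 4 were higher and 1 was lower in both libraries. Gpx1 had 1009 CPM against 264 CPM (3.82) and 815 CPM against 286 CPM (2.85), Sod2 had ratios of 2.69 and 1.68, and Gpx4 was lower (0.504 and 0.462).

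Among genes that feed the chain, 3 of 17 glycolysis genes were higher and 6 lower in the Lin28+/cKit- library, 4 and 7 of 18 in the Lin28+/cKit+ library. These shares (17.6% and 22.2% higher, 35.3% and 38.9% lower) are near those of all genes. Hk2, a hexokinase that binds mitochondria, had 172 CPM against 3.20 CPM (53.8) and 127 CPM against 0.391 CPM (324, 58.1 to 12831, from 1 endothelial UMI). Hk3 had 35.5 CPM against no UMI in the first library, at least 22.2-fold higher than the level that 3 UMIs over the endothelial cells would give (1.60 CPM). Ldhb and Ldha, the lactate dehydrogenase subunits, were lower (0.104 and 0.127, 0.404 and 0.339). Of 18 measured citrate cycle genes 1 was higher in each library and 3 and 8 were lower, with Mdh2 at 0.433 and 0.450. The lower shares, 16.7% and 44.4%, were below and near those of all genes, 34.6% and 37.9%. In fibroblasts against endothelial-like cells Hk2 was also higher (178 CPM against 3.004 CPM, 59.2), and Slc25a4 was higher (1.62). The lists there had 6 higher and 6 lower of 49 for assembly, 3 and 3 of 77 for the ribosome, 2 and 4 of 23 for mitochondrial DNA expression, 2 and 0 of 9 carriers, 2 and 1 of 9 regulators, 2 and 0 of 8 antioxidant genes, 3 and 4 of 17 for glycolysis and 1 and 0 of 18 for the citrate cycle, beside 21.6% higher and 24.7% lower among all genes. Within a class, no list had more than 3 genes called in either direction between 2 sorts.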

How the data were processed

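Values were deposited by the authors on a natural log scale (ln), 1 table per library: each cell's UMIs were scaled to 10000 and 1 was added before taking ln, as the values show. Seurat 4.0.2, Cell Ranger (no version) and build mm10 are named in the submitters' processing notes. Counting rules for strand and overlapping genes are not stated there. Of 85 nuclear members with a place in GENCODE vM21, 40 overlap another gene (32 on the other strand), so their counts are uncertain to that degree, as are those of Atp5o.1, which had no unique match. With the log undone and each cell divided by its lowest value, 100% of values were whole within 0.01, and these recovered UMIs were used. The depth was 500 UMIs per cell at the least.

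A cell was given the class, of 16 with marker lists, whose markers had UMIs in at least 30% of the list and 1.5 times the share of the next class. Cells with mixed markers stayed unassigned, no doublet caller was run, and an alternative left out the deepest 5% of cells. A subtype had the highest mean z-score over its markers, above 0 and ahead by 0.3. A rule on shares of markers had been planned and was replaced, because inflammatory genes were seen in nearly all macrophages. Close to the class margin (1.5 to 2 times) lay 74, 31 and 53 endothelial-like, 18 and 35 macrophage-like and, in the Lin28-/cKit- library, 108 fibroblast-like cells.

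UMIs were summed per class and library and scaled to CPM. Levels carry exact Poisson, ratios exact conditional binomial and shares exact Clopper-Pearson intervals at 95% (scipy 1.17.1, numpy 2.4.6, pandas 2.3.3, Python 3.11.15, figures by matplotlib 3.10.9). They cover counting error only. A gene with at least 20 UMIs in a pair was called at a ratio of 1.5 in either direction with an interval excluding 1. Beside a list's median stand the medians of its members' own limits, in place of the planned simulated interval. For a gene at 0 UMIs in 1 group, 3 UMIs over the group served as the floor.

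The members and lists were chosen with earlier results of these data known. All members were counted. Named were the mitochondrial genes and 6 isoform pairs whatever their values, in each comparison up to 5 called nuclear members with the largest ratios in each direction, 2 members of highest level per complex, and 2 to 4 called genes of each further list. Alternatives were totals that leave out mitochondrial, haemoglobin and ribosomal protein genes, cell means, a pseudocount of 1 CPM, Leiden clusters as classes (scanpy 1.11.5, leidenalg 0.10.2), cells with at least 2000 UMIs, other minimum UMIs per pair and single subtypes. After the data were seen, a class margin of 2 times and cells without a cardiomyocyte marker UMI were added. The scripts were tested on simulated data.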

Additional observations from a re-analysis of the deposited data

How the results depend on the processing

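The median log2 ratio of the nuclear members stayed between the medians of its members' own limits under each alternative run in all 6 comparisons. Those are limits of single genes and not the counting error of a median over many genes. The mitochondrial medians kept their sign but left the range so defined in 4 comparisons. In Lin28+/cKit- against Lin28-/cKit- endothelial-like cells (0.29) the median was 0.38 with Leiden clusters as classes, 0.22 in capillary cells alone, 0.22 at a class margin of 2 times and 0.18 in cells without a cardiomyocyte marker UMI. In macrophages of the Lin28+ libraries (-0.13) it was -0.0022 as a mean over cells, -0.059 in resident cells alone and -0.069 in cells without a cardiomyocyte marker UMI. In macrophages against endothelial-like cells of the Lin28+/cKit- library (-0.23) it was -0.28 on totals that leave out mitochondrial, haemoglobin and ribosomal protein genes and -0.088 in cells without a cardiomyocyte marker UMI. In fibroblasts against endothelial-like cells (-0.40) it was -0.37 with Leiden clusters and -0.38 in cells without a cardiomyocyte marker UMI. The causes were not tested. In cells without a cardiomyocyte marker UMI, 3 single values turned, Cox4i2 (0.17) and Cox6a2 (-0.47) between the endothelial-like cells of Lin28+/cKit- and Lin28-/cKit- and Cox6a2 (0.46) between macrophages and endothelial-like cells of the Lin28+/cKit- library. Of 1849 alternative values of single members 1607 stayed within counting error and 239 moved without turning. In endothelial-like cells of Lin28+/cKit- against Lin28-/cKit- the nuclear calls, 1 higher and 2 lower, became 3 and 3 with Leiden clusters, 0 and 5 in capillary cells, 1 and 3 from 2000 UMIs, 0 and 2 at the margin of 2 times and 1 and 1 without cardiomyocyte marker UMIs. In Lin28+/cKit+ against Lin28+/cKit- endothelial-like cells the 1 higher member became 2 in capillary cells and without cardiomyocyte marker UMIs. The 3 mitochondrial members higher in Lin28+/cKit- against Lin28-/cKit- endothelial-like cells became 2 without the 5% deepest cells and without cardiomyocyte marker UMIs. The 2 lower in the Lin28+ pair became 1 in endothelial-like cells at the margin of 2 times, and 1 in macrophages on the other totals, without the 5% deepest cells and at that margin. The 2 mitochondrial members lower in fibroblasts became 1 with Leiden clusters and 0 without cardiomyocyte marker UMIs. The 39 and 43 nuclear members lower in macrophages ranged from 32 to 44 and from 40 to 47. No library could be left out, since each sort had 1, and genes with few UMIs, such as Cox6b2 and Cox4i2, are limited by depth.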
